A study of Pan troglodytes with 217 samples.

Results

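A group of 10 genes was chosen to describe 2 trophectoderm-like states in chimpanzee blastoids, which are blastocyst-like structures grown from naive pluripotent stem cells. RGS13, OLR1, SEMA6D, EMP2 and OSBPL1A, the first set, were higher in the larger of 2 trophectoderm-like clusters of cells. PTPRE, CCR7, CLMP, CAV1 and PTN, the second set, were higher in the smaller one. They are 10 of the 33729 gene identifiers counted, and each matched 1 identifier. They were chosen from the levels described here, because they separated the clusters in an earlier look at the same cells, so the direction of each gene is a description and carries no test.

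The data are read counts from single cells of day 4 blastoids of Pan troglodytes, prepared by SMART-seq2. All the cells belong to a single group. Chimpanzee naive iPSCs were maintained with PD032590, XAV939, Gö6983, LIF, activin A, IL6 and the EZH2 inhibitor EPZ-6438. Blastoids formed in a series of media, of which the first held the inhibitors PD, A83 and Y-27632 beside LPA and the last was N2B27 alone. Most of the mural trophectoderm, the wall away from the inner cells, had been cut away by hand, so the share of trophectoderm-like cells does not describe whole blastoids. The study's methods describe the inner cells with the trophectoderm over them and the cut mural trophectoderm as dissociated separately, for different times. The labels do not say from which of these parts, or from which blastoid, line or batch, a cell came. The cells were therefore treated as 1 sample without replicates, intervals cover counting error only, and no difference between the states was tested.

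In the embryo, the trophectoderm is the outer epithelium of the blastocyst that gives rise to the trophoblast of the placenta. The part that overlies the inner cell mass is called polar and the rest mural, and in human embryos CCR7 is used as a marker of the polar, more mature part. CDX2 marks early trophectoderm, while GCM1, HSD3B1, CYP19A1 and CGA belong to the programme of the hormone-producing syncytiotrophoblast. The second set has 2 genes for membrane receptors, those of the chemokine receptor CCR7 and the tyrosine phosphatase PTPRE, and genes for an adhesion protein, CLMP, a protein of membrane pits, CAV1, and a secreted growth factor, PTN. The first set has genes for a receptor of oxidized lipoprotein, OLR1, a semaphorin, SEMA6D, and a tetraspan membrane protein, EMP2, beside an inhibitor of G protein signalling, RGS13, and a lipid-binding protein, OSBPL1A.

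Cells with at least 8000 detected genes were used, and 24 below this were left out. Those kept formed 4 clusters, with 60 and 51 trophectoderm-like, 50 epiblast-like and 32 hypoblast-like cells. Of 14 trophectoderm markers, 13 had a higher pooled level in both trophectoderm-like clusters than in the others, although CLDN4 was near 0 in all of them. The exception was CDX2, with 24.8 CPM in the larger and 1.62 CPM in the smaller cluster, against 4.35 CPM in epiblast-like and 9.11 CPM in hypoblast-like cells. The larger trophectoderm-like cluster had a median of 3693058 reads and 10738.5 detected genes per cell, against 4516217 reads and 11528 genes in the smaller one. All 10 genes took part in the clustering. Levels are given as CPM, reads per 1000000 reads of the cell or of the pooled cells. They are compared for the same gene across cells, never between genes, because no gene lengths were used.

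In the clusters that these genes helped to form, the second set was close to exclusive for PTPRE, CLMP and CAV1. It was less so for CCR7, and not at all for PTN. CLMP, an adhesion protein of tight junctions, ranged from 0 to 2.35 CPM in the larger cluster, with a median of 0 CPM, and from 0 to 137.8 CPM in the smaller cluster, with a median of 38.2 CPM. It reached 10 CPM in 0 of 60 cells of the larger cluster, which allows a share of up to 5%, and in 40 of 51 cells of the smaller one (78.4%, exact 95% interval 64.7 to 88.7%). Its pooled levels were 0.0828 CPM (0.0519 to 0.125) and 52.3 CPM (51.4 to 53.2), a 632-fold difference that rests on 22 reads in 5 cells on the low side. The difference was 20.6-fold when the 10 genes were left out of the clustering, where 6 of 72 cells of the larger cluster reached 10 CPM, 60.7-fold with cells of at least 9000 genes, and 975.8-fold without the top cell of each cluster. With the clusters as described here, every trophectoderm-like cell with CLMP at 10 CPM lay in the smaller cluster, while 11 cells of that cluster were below this level.

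PTPRE encodes a receptor-type tyrosine phosphatase. Its range was 0 to 11 CPM in the larger cluster, with a median of 0 CPM, and 0 to 321 CPM in the smaller cluster, with a median of 59.9 CPM. PTPRE was at 10 CPM or more in 2 of 60 and 42 of 51 cells, and the pooled levels differed 151.6-fold. Of the 51 cells, 11 lay below the highest cell of the larger cluster, and 4 of them had no PTPRE read, like 55 of the 60 cells of the larger cluster.

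CAV1, the caveolin that forms the membrane pits called caveolae, ranged from 0 to 49.6 CPM with a median of 0 CPM in the larger cluster. In the smaller cluster it ranged from 0 to 1296 CPM with a median of 126.6 CPM. The level of 10 CPM was reached in 4 of 60 and 40 of 51 cells, with an 86.4-fold difference of the pooled levels. A single cell held 51% of the CAV1 reads of the larger cluster, and without the top cell of each cluster the difference was 154.3-fold. In the smaller cluster 20 cells were below that cell. With the 10 genes left out of the clustering the CAV1 difference was 6.81-fold. CAV1 then reached 10 CPM in 11 of 72 cells of the larger cluster (15.3%), so it was less exclusive with that boundary.

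CCR7, the receptor for the chemokines CCL19 and CCL21, ranged from 0 to 77.9 CPM with a median of 0 CPM in the larger cluster and from 0 to 1310 CPM with a median of 212.6 CPM in the smaller one. It reached 10 CPM in 12 of 60 cells (20.0%, 10.8 to 32.3%) and in 48 of 51 cells (94.1%, 83.8 to 98.8%), and the pooled levels differed 55.2-fold. CCR7 was thus present at low levels in a minority of the larger cluster, in which CLMP was almost absent. The remaining 3 cells of the smaller cluster had no CCR7 read.

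PTN encodes pleiotrophin, a secreted heparin-binding growth factor. It ranged from 11.5 to 2449 CPM with a median of 442 CPM in the larger cluster and from 367 to 4367 CPM with a median of 1427 CPM in the smaller one. Every trophectoderm-like cell was above 10 CPM, and the pooled levels of 573 and 1614 CPM differed 2.82-fold. PTN therefore differed in amount rather than presence, and 9 cells of the larger cluster exceeded the median of the smaller one. It separated both trophectoderm-like clusters from the rest more widely than from each other, with pooled levels of 41.8 CPM in epiblast-like and 53.3 CPM in hypoblast-like cells.

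No gene of the first set was exclusive to the larger cluster. RGS13, which speeds the inactivation of G proteins, ranged from 0 to 880 CPM with a median of 43.6 CPM in the larger cluster, and from 0 to 299 CPM with a median of 0 CPM in the smaller cluster. It reached 10 CPM in 38 of 60 cells and in 9 of 51 cells, with pooled levels of 123.4 and 10.5 CPM (11.7-fold). It was a patchy gene: 15 cells of the larger cluster had no read, and 1 cell held 48.3% of the RGS13 reads of the smaller cluster. Without the top cell of each cluster the pooled levels were 105.8 and 5.54 CPM (19.1-fold).

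SEMA6D, a transmembrane ligand of plexin receptors, ranged from 0 to 384 CPM with a median of 43.2 CPM in the larger cluster and from 0 to 171.7 CPM with a median of 0 CPM in the smaller cluster. It reached 10 CPM in 46 of 60 and 10 of 51 cells, with pooled levels of 77.6 and 6.35 CPM (12.2-fold). Like RGS13, it was absent from most but not all cells of the smaller cluster.

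OSBPL1A encodes an oxysterol-binding protein of late endosomes. It ranged from 6.76 to 370 CPM with a median of 125.7 CPM in the larger cluster, and from 0 to 104.9 CPM with a median of 6.66 CPM in the smaller cluster. It reached 10 CPM in 56 of 60 and 24 of 51 cells, and the pooled levels of 146.8 and 17.5 CPM differed 8.38-fold. No cell of the smaller cluster reached the median of the larger one, which held for no other gene of the first set.

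OLR1, a lectin-like receptor for oxidized LDL, ranged from 3.66 to 6773 CPM with a median of 165.1 CPM in the larger cluster and from 0 to 341 CPM with a median of 51.8 CPM in the smaller one. EMP2, an epithelial membrane protein, ranged from 35.5 to 4414 CPM with a median of 521 CPM in the larger cluster and from 0 to 1276 CPM with a median of 36.4 CPM in the smaller one. OLR1 reached 10 CPM in 58 of 60 and 42 of 51 cells, and EMP2 in 60 of 60 and 43 of 51 cells. Both were graded rather than switched between the clusters, with pooled differences of 4.03-fold and 5.20-fold. A single cell held 16.3% of the OLR1 reads of the larger cluster.

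**Figure D1:**
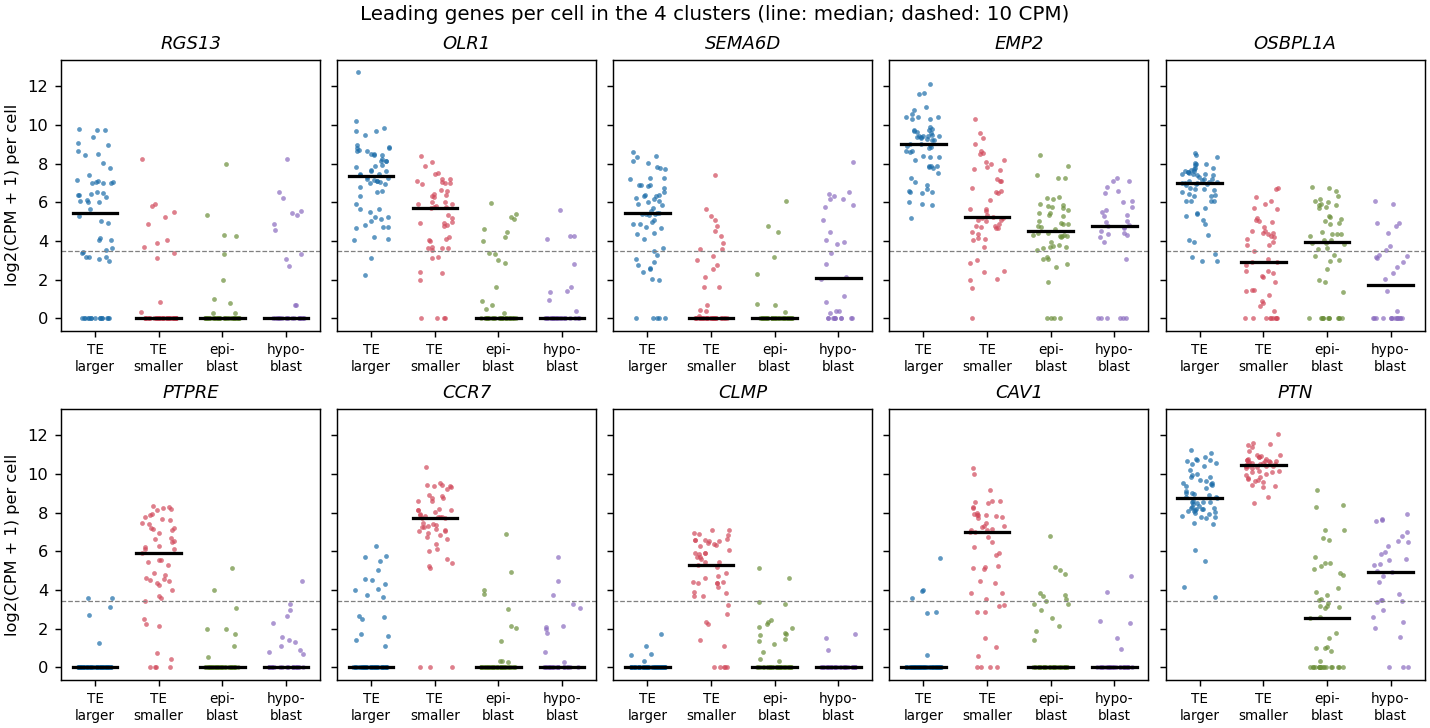
Level of each of the 10 genes, as log2(CPM + 1) per cell, in the larger (n = 60) and smaller (n = 51) trophectoderm-like, epiblast-like (n = 50) and hypoblast-like (n = 32) clusters. Each point is a cell, the black line is the median and the dashed line marks 10 CPM. The lower row shows CLMP below 10 CPM in every cell of the larger and PTN above it in every cell of both trophectoderm-like clusters.

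Of the 15804 genes read in 20 or more of the cells kept, 0.658% were 4-fold or more higher in the larger cluster and at 10 CPM there, among them all 5 genes of the first set. In the other direction 1.31% passed, among them PTPRE, CCR7, CLMP and CAV1 but not PTN. A stricter measure of exclusivity asked for 10 CPM in at least 50% of the cells of a cluster and at most 10% of the other. It was met by 15 genes (0.0949%) for the larger cluster, none of them in the first set, and by 24 genes (0.152%) for the smaller, including PTPRE, CLMP and CAV1. These counts used the same levels that chose the genes, so they place the genes among all others and support nothing further.

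All of the genes but PTN stood at the head of a ranking by the fold of a cluster over all other cells, among the 3563 and 3742 genes with at least 50 CPM in the larger or smaller cluster and detection in at least 50% of its cells, and the next genes in that ranking were close behind. In the larger cluster OSBPL1A, at rank 5, had a 7.87-fold excess over all other cells, while TMPRSS2, a transmembrane serine protease, and LRP2, the endocytic receptor megalin, just outside, had 7.68-fold and 7.04-fold. In the smaller cluster rank 3, between CCR7 and CLMP, was held by ENSPTRG00000011272, a gene without a symbol here. CAV1, at rank 5, had a 50.7-fold excess over all other cells. The next genes were ENSPTRG00000052032, also without a symbol, with 49.9-fold and CYP19A1, the aromatase of oestrogen synthesis, with 47.4-fold. PTN, with a 5.85-fold excess, was at rank 60 of 3742 genes.

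Outside the trophectoderm-like clusters, genes of both sets were found, and neither set was uniform. In the 82 epiblast-like and hypoblast-like cells, PTPRE reached 10 CPM in 3, CLMP in 2, CCR7 in 7 and CAV1 in 10 cells, but PTN in 41. Of the first set, RGS13 and OLR1 reached 10 CPM in 12 cells each, SEMA6D in 16, OSBPL1A in 38 and EMP2 in 65 of these 82 cells, the last with a pooled level of 47.4 CPM. The pooled level of OSBPL1A in epiblast-like cells, at 25.5 CPM (24.8 to 26.2), exceeded that in the smaller trophectoderm-like cluster, at 17.5 CPM (17 to 18). Single cells overlapped widely, from 0 to 111.6 CPM with a median of 14.7 CPM and from 0 to 104.9 CPM with a median of 6.66 CPM. Hypoblast-like cells held more SEMA6D, at 23.6 CPM with a read in 22 of 32 cells, than the smaller trophectoderm-like cluster. RGS13 was at 22.8 CPM in hypoblast-like cells, with a median of 0 CPM and a read in 13 of 32 cells, of which 1 held 48.7% of the reads, and was at 12.1 CPM without that cell. OLR1 was the gene of the first set that was low in both other lineages, with 6.04 CPM in epiblast-like and 3.74 CPM in hypoblast-like cells.

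To describe the cells by the sets as a whole, a gene was called on at 10 CPM and a set on with at least 3 of its 5 genes on. This threshold weighs genes unequally, since a long gene reaches it sooner. Of the trophectoderm-like cells, 63 had only the first set on (56.8%, 47 to 66.1%), 24 only the second (21.6%, 14.4 to 30.4%) and 24 both (21.6%, 14.4 to 30.4%). None had neither, which allows a share of up to 2.70%. The cells with both sets on were split unevenly, with 2 in the larger and 22 in the smaller cluster, where they made up 43.1% (29.3 to 57.8%) of the cells.

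Coexpression in those 24 cells rested on part of the first set. OLR1 and EMP2 were on in 24 and OSBPL1A in 20 of them, but RGS13 only in 8 and SEMA6D in 7. Over all trophectoderm-like cells OLR1, EMP2 and OSBPL1A were on in 90.1%, 92.8% and 72.1%, and RGS13 and SEMA6D in 42.3% and 50.5%. In the 24 cells the medians for OLR1 and EMP2 were 80.4 and 136.8 CPM, below the 160.9 and 514 CPM of the cells with only the first set on. Of the second set, PTPRE was on in 23, CCR7 in 22, CAV1 in 19, CLMP in 17 and PTN in all of the 24, which were chosen for having at least 3 of these genes on. PTN was on in every trophectoderm-like cell, so the rule asked in effect for 2 of the other 4. PTPRE, at a median of 23.1 CPM, was nevertheless lower than the 147.2 CPM of cells with only the second set on, and CLMP was 19.8 against 71.9 CPM. The 24 cells had a median of 4544675.5 reads and 11644.5 detected genes, and cells with only the first or second set on had 3658334 and 4583980.5 reads and 10711 and 11412 genes. The part of depth in the coexpression was not tested. The share with both sets on depended on the definition, from 2.70% with at least 4 genes of a set or at 50 CPM to 49.5% with at least 2 genes of a set.

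RGS13 and SEMA6D were the genes of the first set that most rarely met the near-exclusive genes of the second set. RGS13 and CLMP were both on in 3 cells, RGS13 and CAV1 in 5, SEMA6D and CLMP in 5, SEMA6D and PTPRE in 6, and RGS13 and PTPRE, like SEMA6D and CAV1, in 7. Any of RGS13 and SEMA6D was on together with any of PTPRE, CLMP and CAV1 in 15 cells (13.5%, 7.77 to 21.3%), 12 of them in the smaller cluster. By contrast OLR1 and EMP2 were on with CLMP in 32 cells each, which is 80% of the 40 cells with CLMP on. That is below their shares over all trophectoderm-like cells, 90.1% for OLR1 and 92.8% for EMP2. RGS13 and SEMA6D were on in only 42.3% and 50.5% of all these cells, so the counts of overlap are not alike. No pair across the sets was exclusive, since even RGS13 and CLMP had reads of both genes in 14 cells.

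Spearman correlations of the levels over the 60 and 51 trophectoderm-like cells together gave the same division by sign. All 25 pairs across the sets were negative, from -0.749 for EMP2 and CCR7 to -0.156 for OLR1 and PTN, with a median of -0.548. The 10 pairs within the second set ran from 0.593 for CCR7 and PTN to 0.868 for PTPRE and CLMP. Within the first set the range was wide, from -0.0117 for RGS13 and OLR1 to 0.763 for OLR1 and EMP2. The cells share the clustering that these genes led, so the signs over both clusters are a restatement of how the genes were chosen.

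**Figure D2:**
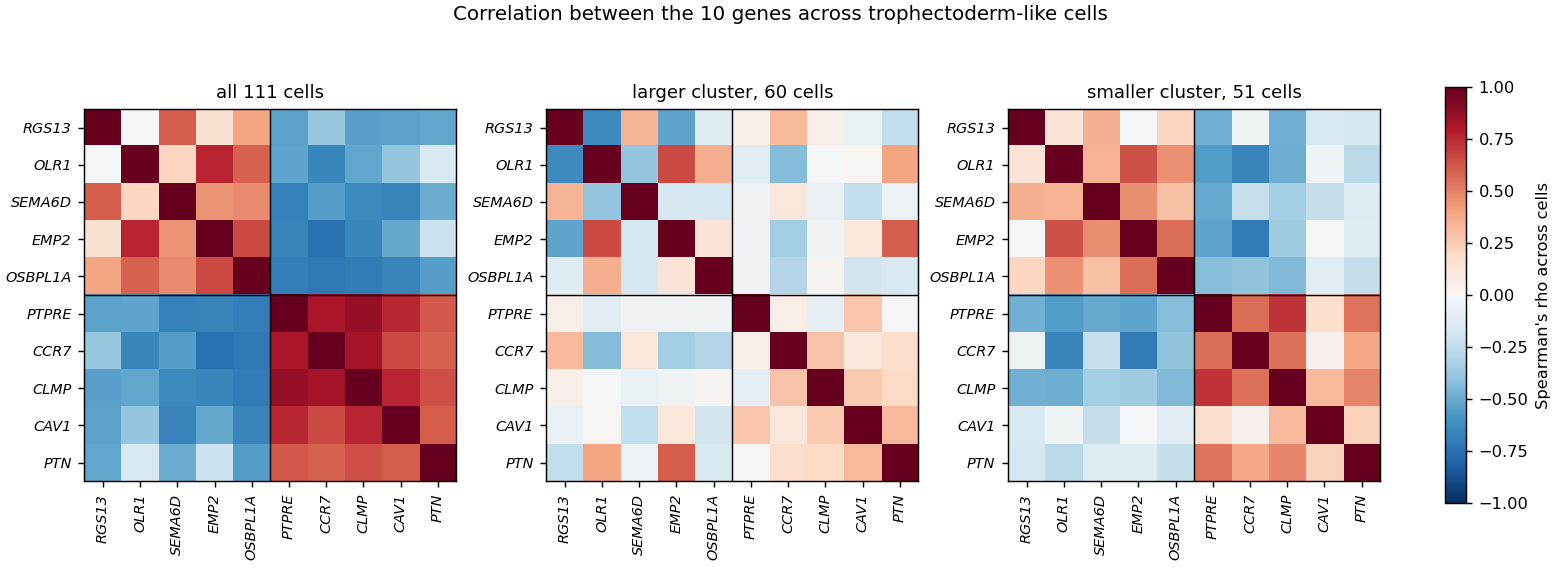
Spearman's rho between the 10 genes over all trophectoderm-like cells, the 60 cells of the larger cluster and the 51 cells of the smaller cluster. Red is positive and blue negative, and black lines part the first from the second set. The middle panel shows RGS13 in blue against OLR1 (-0.636) and EMP2 (-0.524), which are red against each other (0.656).

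Within the larger cluster the first set was not a single programme. RGS13 ran against OLR1 (rho = -0.636, 60 cells) and EMP2 (-0.524), while OLR1 and EMP2 varied together (0.656). SEMA6D sided with RGS13 (0.337) and against OLR1 (-0.397). PTN, although of the second set, followed EMP2 (0.607) and OLR1 (0.396), and it had a rho of 0.701 with ENPEP, an aminopeptidase of the trophectoderm list. With the number of reads in these cells RGS13 had a rho of -0.000224, OLR1 of -0.0707, SEMA6D of -0.0959, EMP2 of -0.217, PTN of -0.308 and OSBPL1A of 0.262. The part of depth in these relations was not tested.

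The opposition was visible in the levels. In the 38 cells with RGS13 on, OLR1 ranged from 3.66 to 462 CPM with a median of 100.1 CPM, and in the 22 cells with RGS13 below 10 CPM from 95.9 to 6773 CPM with a median of 349 CPM. EMP2 had medians of 333 and 751 CPM and PTN of 376 and 709 CPM in the same cells. SEMA6D went the other way, with medians of 73.1 and 17.8 CPM. The ranges overlapped for each of these genes, so the larger cluster did not part cleanly by them. OSBPL1A had medians of 122.9 and 136.3 CPM, with a rho of 0.364 with OLR1 and -0.124 with RGS13.

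Within the smaller cluster RGS13 had a rho of 0.137 with OLR1 and -0.00934 with EMP2, values that rest on few cells, since 38 of the 51 had no RGS13 read. OLR1 and EMP2 again varied together (0.636). All 25 pairs across the sets were negative there, with a median of -0.337 and the lowest value for EMP2 and CCR7 (-0.702). The mean log2(CPM + 1) of the first set had a rho of -0.682 with that of the second in the smaller cluster and of -0.790 over all cells. The genes helped to form the smaller cluster, and 12 of its cells joined the larger one when they were left out of the clustering. The relation without those cells was not tested. In the larger cluster the set means had a rho of -0.0186, and the 25 pairs ran from -0.437 to 0.607 with a median of -0.0357. PTPRE and CLMP had no read in 55, CAV1 in 53 and CCR7 in 41 of those 60 cells. In the smaller cluster CAV1 had a rho from -0.240 with SEMA6D to -0.00973 with EMP2 in the first set and from 0.0425 with CCR7 to 0.324 with CLMP in the second.

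**Figure D3:**
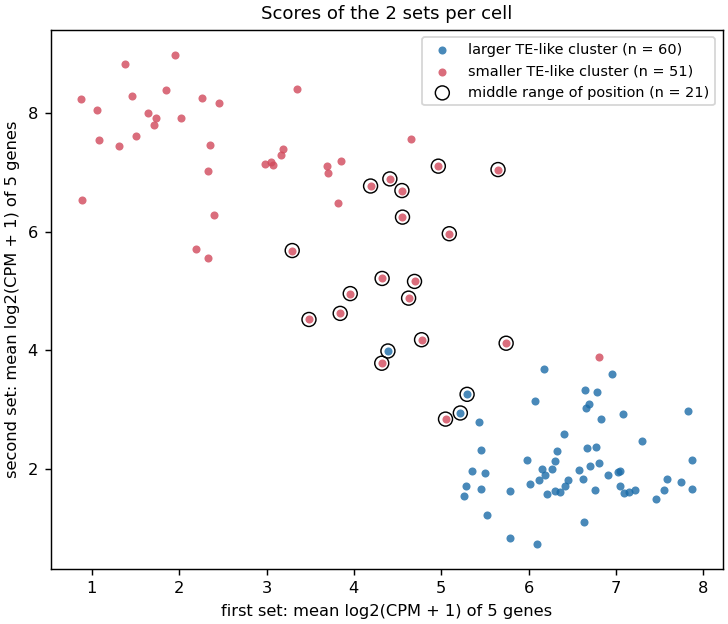
Mean log2(CPM + 1) of the 5 genes of the first set (horizontal) and of the second set (vertical) in each trophectoderm-like cell, coloured by cluster (60 and 51 cells). Circles mark the 21 cells in the middle range of the position. Cells of the larger cluster form a cloud at the lower right, and cells of the smaller cluster run from it to the upper left.

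Each cell was then given a position from 0 to 1. Each gene was scaled between its 5th and 95th percentile over the trophectoderm-like cells, and the position averaged the second set and the reverse of the first. The position was divided at 0.333 and 0.667. The low range held 58 cells, the middle range 21 (18.9%, 12.1 to 27.5%) and the high range 32. From low to high, 10 equal bins of the axis held 3, 23, 27, 9, 3, 8, 9, 10, 12 and 7 cells. The fullest bins lay between 0.1 and 0.3, the bin with the fewest cells above that ran from 0.4 to 0.5, and none was empty. These ranges are not cell types, since 10 and 12 cells lay within 0.05 of the lower and upper boundary. The smaller cluster was spread along the axis, with 1 cell in the low, 18 in the middle and 32 in the high range. The larger cluster was not, with 57 cells in the low and 3 in the middle range.

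The cells in the middle were not uniformly intermediate, and each gene had its own state there. PTN had a median of 1452 CPM in the 21 cells, close to the 1585 CPM of the high range and above the 414 CPM of the low range. CCR7 had medians of 0, 99 and 286 CPM in the low, middle and high range, and CAV1 of 0, 37.4 and 148.2 CPM. PTPRE, at 0, 10 and 131.5 CPM, and CLMP, at 0, 5.70 and 59.9 CPM, were still low in the middle. Relative to its own end levels, PTN and CCR7 were thus nearer the high range in these cells than PTPRE and CLMP.

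In the first set, RGS13 and SEMA6D were low in the middle while OLR1 and EMP2 were not. RGS13 had medians of 64.3, 0 and 0 CPM in the low, middle and high range, and SEMA6D of 43.2, 4.88 and 0 CPM. OLR1 had 165.1, 128.8 and 21.5 CPM, EMP2 507, 294 and 27.7 CPM, and OSBPL1A 125.7, 28.2 and 3.47 CPM. By these medians, the middle range combined OLR1, EMP2, PTN and CCR7 with little RGS13 and CLMP. Single genes were often at an end of their range in these cells: on its scale of 0 to 1, CCR7 lay between 0.333 and 0.667 in 5, below it in 5 and above it in 11 of the 21 cells.

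**Figure D4:**
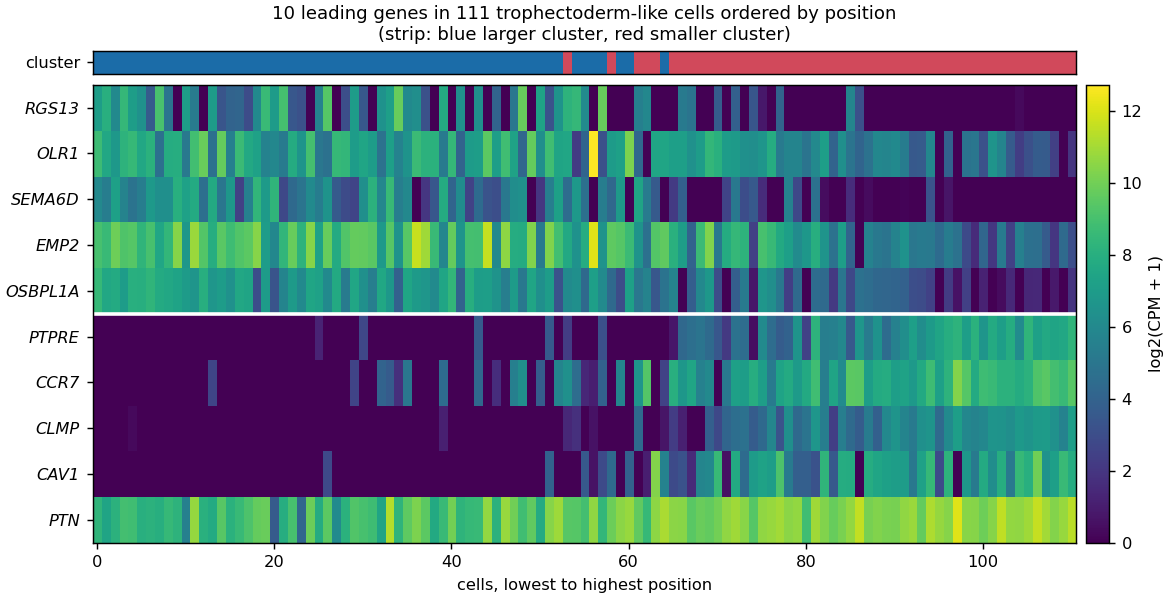
Levels of the 10 genes as log2(CPM + 1) in 58 low, 21 middle and 32 high trophectoderm-like cells (columns) ordered from the lowest to the highest position. The strip gives the cluster, and the white line parts the first set (top) from the second (bottom). RGS13 and SEMA6D are dark further to the left than OLR1 and EMP2, and PTN is present throughout.

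The position contains the genes themselves, so each gene was also followed along the position of the other 9 genes, in 5 bins of 22 or 23 cells. RGS13 and SEMA6D took their widest step down from bin 3 to bin 4, where their mean scaled levels went from 0.512 to 0.135 and from 0.589 to 0.217. OLR1, EMP2 and OSBPL1A took theirs from bin 4 to bin 5, with OLR1 going from 0.562 to 0.245. All 5 genes of the second set took their widest step up from bin 3 to bin 4, between 0.241 for PTN and 0.519 for CLMP. Bins 1 and 2 held 0 cells of the smaller cluster, bin 3 held 7 or 8, bin 4 held 21 or 22 and bin 5 held 22. The step from bin 3 to bin 4 is therefore largely the passage between the clusters that the genes were chosen to separate.

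The sequence in which the first set declined depended on how the cells were lined up. Along principal component 1 of 13747 genes without the 10, OLR1, EMP2 and OSBPL1A took their widest step from bin 3 to bin 4, RGS13 from bin 4 to bin 5 and SEMA6D from bin 2 to bin 3. The second set kept bins 3 to 4, except CLMP with bins 4 to 5. Along this order the 5 bins held 1, 3, 6, 19 and 22 cells of the smaller cluster. The component had a rho of 0.765 with the position over these cells, of 0.735 within the smaller and 0.0880 within the larger cluster, and of 0.665 with the number of detected genes. The position had a rho of only 0.256 with detected genes and 0.148 with reads. Over both clusters together, each gene kept along both orders the direction by which it was chosen. Within the larger cluster RGS13 (0.272), OLR1 (0.281), EMP2 (0.218) and SEMA6D (0.0893) had a positive rho with the position of the other 9 genes. Of the first set only OSBPL1A had a negative one there (-0.242). With the component, the first set had a rho from -0.640 for SEMA6D to -0.411 for OLR1 and the second set from 0.461 for PTN to 0.820 for PTPRE. The sequence within the first set was not the same.

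**Figure D5:**
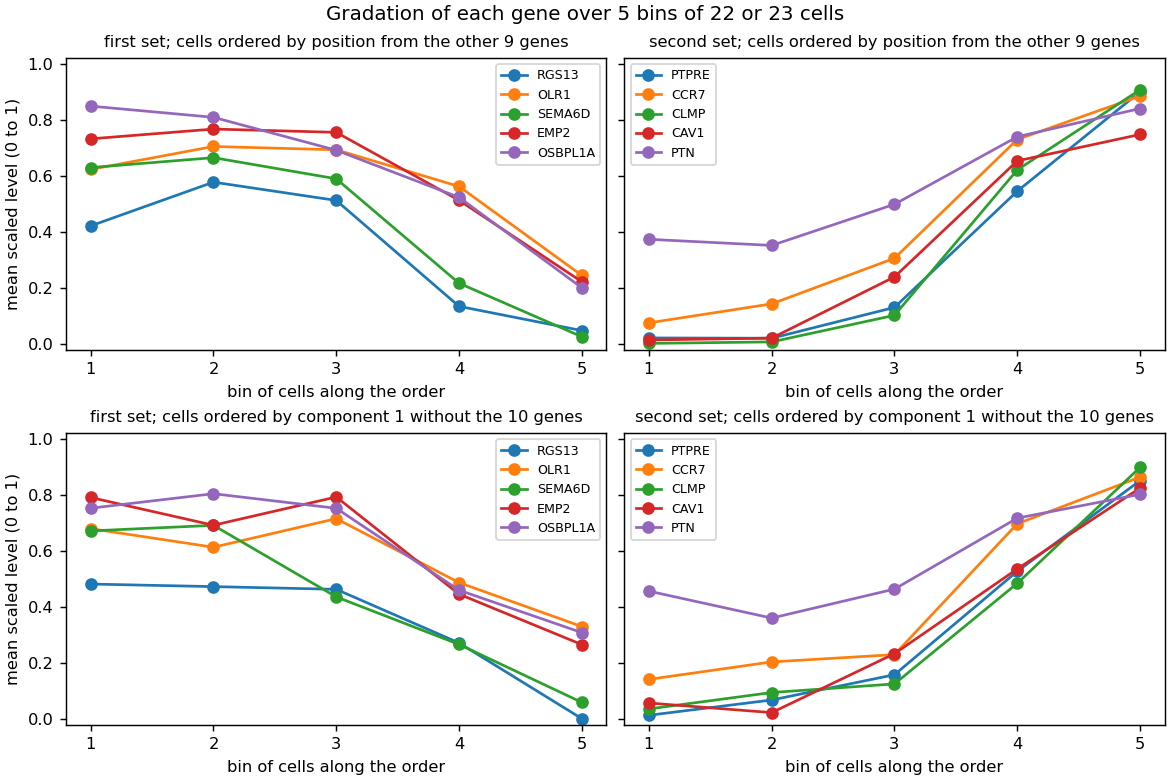
Mean scaled level (0 to 1) of each gene in 5 bins of 22 or 23 cells, ordered by the position of the other 9 genes (top) or by principal component 1 without the 10 genes (bottom). Left panels show the first and right panels the second set. The widest step down of RGS13 lies between bins 3 and 4 in the top left panel and between bins 4 and 5 in the bottom left panel.

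When the 10 genes were left out of the clustering, the same cells were trophectoderm-like, but the boundary between the states moved. The clusters had 72 and 39 cells, since 12 cells of the smaller cluster joined the larger one and none went the other way. These 12 cells had positions from 0.301 to 0.678, and 10 of them were in the middle range. They had a median of 10638 detected genes, against 11633 in the 39 cells, and the part of depth in the move was not tested. With this boundary the pooled CLMP difference was 20.6-fold in place of 632-fold, CAV1 6.81-fold in place of 86.4-fold, PTPRE 51.3-fold in place of 151.6-fold and CCR7 15.5-fold in place of 55.2-fold. CLMP then reached 10 CPM in 6 of 72 and 34 of 39 cells. RGS13 became sharper, at 33.4-fold in place of 11.7-fold, with 3 of 39 cells on, as did SEMA6D, at 22.4-fold in place of 12.2-fold, and EMP2, at 8.53-fold in place of 5.20-fold. The sharpness of the second set thus depended on where the intermediate cells were put.

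Known markers that did not choose the position differed along it as well, although they took part in the clustering. CDX2 reached 10 CPM in 39 of 58 cells of the low, 1 of 21 of the middle and 0 of 32 of the high range, the last of which allows a share of up to 9.38%. HSD3B1, a steroid dehydrogenase, was on in 11, 18 and 31 of these cells and GCM1, a transcription factor of the syncytiotrophoblast programme, in 13, 17 and 31. CYP19A1 was on in 9, 4 and 27 cells, and CGA, the alpha subunit of chorionic gonadotropin, in 6, 7 and 21 cells. Of the other 5 genes of the 9 in the syncytiotrophoblast list, OVOL1 was on in 32, 17 and 32 cells, SDC1 in 4, 3 and 15, ERVFRD-1 in 0, 2 and 5 and INSL4 in 1, 0 and 3. SLC1A5, an amino acid transporter, ran the other way, with medians of 59.5, 69 and 4.87 CPM. Most middle cells therefore lacked CDX2 and CYP19A1 at 10 CPM and had HSD3B1 and GCM1. VGLL1, a TEAD cofactor, had medians of 80.2, 308 and 626 CPM and DAB2, an endocytic adaptor, of 621, 328 and 123.8 CPM in the low, middle and high range.

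Markers of epiblast and hypoblast had low medians along the whole axis, whereas part of the amnion list was not. The summed level of 10 epiblast markers had medians of 74.8, 56.8 and 22.4 CPM in the low, middle and high range, against 2341 CPM in epiblast-like cells. POU5F1 had medians of 70.1, 49.3 and 20.5 CPM, and the other 9 epiblast markers had a median of 0 CPM in each range. That of 10 hypoblast markers had medians of 7.43, 7.24 and 15.6 CPM, against 1067 CPM in hypoblast-like cells. Single cells held more: at least 3 epiblast markers reached 10 CPM in 5 of 58 low, 2 of 21 middle and 4 of 32 high cells, with a summed level of up to 691 CPM. At least 3 hypoblast markers did so in 1, 0 and 1 of these cells, and the count of 0 allows a share of up to 14.3%. Of 6 amnion genes, IGFBP3, ISL1 and TFAP2B reached 10 CPM in 0 of all these cells, which allows a share of up to 2.70% each, and GABRP in 1. VTCN1, an immune checkpoint ligand, reached 10 CPM in 37, 18 and 12 and BAMBI, a decoy receptor for TGF-beta ligands, in 25, 9 and 13 cells of the low, middle and high range. The summed amnion list had medians of 42.6 and 41.5 CPM in the larger and smaller cluster, below the 237.01 CPM of epiblast-like and the 327 CPM of hypoblast-like cells. Of 6 genes of extravillous trophoblast, HLA-G reached 10 CPM in 0 cells, MMP2 and ASCL2 in 1 cell each, and ITGA1 in 9 cells, all of the high range. ITGA5 did so in 12, 9 and 9 and NOTUM in 17, 7 and 17 cells of the low, middle and high range. Of 10 cell cycle genes, RRM2, a subunit of ribonucleotide reductase, had the highest rho with the position, at 0.631, with medians of 509, 962 and 1249 CPM in the 3 ranges. The other 9 had a rho from 0.00491 for TYMS to 0.433 for AURKA.

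Within a cluster, some of the genes differed in median between cells with and without CDX2 or CGA, and others differed less. In the larger cluster, the 39 cells with CDX2 on had a lower median of PTN, at 364 CPM, than the 21 without, at 937 CPM, and a higher median of RGS13, at 64 against 31.9 CPM. SEMA6D had medians of 43.1 and 56.3 CPM in these cells. In the smaller cluster, the 27 cells with CGA on had more PTPRE, with a median of 139.7 against 24.5 CPM, and less EMP2, at 26.4 against 91.2 CPM, than the 24 without, while CAV1 was lower, at 87.5 against 131.4 CPM. CLMP had medians of 38.2 and 34 CPM and PTN of 1616 and 1391 CPM. The ranges in these groups were not compared. The only cell of the smaller cluster with CDX2 on, at position 0.301, had 299 CPM of RGS13, 84.1 CPM of CCR7 and 1.64 CPM of CLMP, and was the cell that held 48.3% of the RGS13 reads of that cluster.

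Among the 11642 identifiers with a symbol, and apart from the 10 genes, those most like the position included GNA12, a G protein alpha subunit (rho = 0.813), NET1, an exchange factor for RhoA (0.812), CYP11A1, which makes pregnenolone from cholesterol (0.811), and the transcription factor BHLHE40 (0.806). The most opposed were MX2, an interferon-induced GTPase (-0.866), RNF125 (-0.830), S100A16 (-0.810), TUBB4A (-0.808) and ENPP1 (-0.797). MX2 had pooled levels of 356 CPM in the larger and 34.7 CPM in the smaller cluster, and NET1 of 33.6 and 657 CPM. These values cover the cells of the same clusters and are descriptions.

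Each gene also had a closest companion among the identifiers with a symbol, over both clusters together. These ranks use the levels by which the genes were chosen. RGS13 was most like IDH1, the cytosolic isocitrate dehydrogenase (rho = 0.672), SEMA6D most like NF2, the gene of merlin (0.729), and OSBPL1A most like S100A16 (0.767). EMP2 was most like CD99 (0.765), with OLR1 next at 0.763, and OLR1 was most like EMP2. OLR1 was only at rank 4873 of 11641 genes ordered by likeness to RGS13. In the second set PTPRE and CLMP were each the closest gene of the other, and CLMP, CAV1 and PTN each had all 4 other genes of the set among their 100 most alike. CCR7 was most like GNA12 (0.835), CAV1 most like CTNNB1, the gene of beta-catenin (0.772), and PTN most like MRGPRX1, a G protein-coupled receptor (0.793).

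Relatives and partners of the 10 genes mostly did not follow them. Of 78 such genes, 1 (CCR6) had no identifier, 44 were below 10 CPM in both trophectoderm-like clusters, and 33 reached it. Of the 33, 5 were 4-fold or more higher in the smaller (15.2%) and 2 in the larger cluster (6.06%), against 2.64% and 1.32% of all 7853 genes at that level. Higher in the smaller cluster were GNAI1, an inhibitory G protein subunit, at 8.61 against 144.2 CPM, SDC1, a syndecan, at 2.47 against 78.5 CPM, JAM3, a junctional adhesion protein, at 10.4 against 41.9 CPM, PTPRM, a receptor phosphatase, at 0.301 against 13.3 CPM, and PMP22, a relative of EMP2, at 2.61 against 11.4 CPM. PMP22 had a median of 0 CPM in both clusters and was on in 5 of 60 and 9 of 51 cells. Higher in the larger cluster were CXADR, the adhesion receptor to which CLMP is related, at 132.2 against 24.7 CPM, and RGS2, a relative of RGS13, at 11.9 against 2.15 CPM, with a median of 0 CPM in both and 15 of 60 and 3 of 51 cells on. CXADR and CLMP, related junctional proteins, thus had opposite patterns.

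Of the 7 other caveolar genes listed for CAV1, only PACSIN2, a membrane-bending protein, reached 10 CPM, with 44.2 CPM in the larger and 37.7 CPM in the smaller cluster. In the smaller cluster CAV2, which assembles with CAV1, had 2.21 CPM, and the cavins that coat caveolae had 1.27 CPM (CAVIN1), 0 CPM (CAVIN2) and 6.40 CPM (CAVIN3). CCL19 had 0.0239 CPM in the smaller cluster and no read in the larger, and CCL21 had no read in either. Of the possible partners of SEMA6D, the plexins PLXNA1 and PLXNA2 had 28.3 and 20.9 CPM in the larger and 62.1 and 73.4 CPM in the smaller cluster, and PLXNA4 was near 0 in both. MDK, the other growth factor of the PTN family, had similar levels of 561 and 544 CPM, and the other oxysterol-binding proteins at 10 CPM differed by less than 4-fold.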

How the data were processed

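Single cells of day 4 chimpanzee blastoids were sequenced by SMART-seq2, and the authors deposited raw read counts per gene for 217 cells and 33729 chimpanzee Ensembl identifiers, without normalization and without molecular identifiers. The study's methods describe trimming with FastP and counting with STAR on a chimpanzee genome, whereas the submitters' processing notes name Trim Galore 0.6.6, STAR 2.7.7a and GRCh38. All identifiers are chimpanzee ones. Gene symbols came from a table that covers 18783 identifiers. No genome or gene lengths were used, and no sequences are shown.

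Totals ranged from 5792 to 25630392 reads in all cells and from 1679888 to 25630392 in the 193 cells with at least 8000 detected genes. Scanpy 1.11.5 normalized and log-transformed the counts of genes with a read in at least 20 cells, with 50 principal components and 30 neighbours. Leiden clusters (leidenalg 0.10.2, resolution 1, seed 0) were named from lists of lineage markers. Doublets were not called. Python 3.11.15, numpy 2.4.6, pandas 2.3.3 and scipy 1.17.1 were used. Shares have exact Clopper-Pearson and CPM exact Poisson 95% intervals, and for a count of 0 the share that 3 counts would give is stated. Log values used a pseudocount of 1, and rho is Spearman's correlation across cells. No p-values were computed, since the cells are 1 sample.

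The 10 genes, the marker lists and the lists of relatives were chosen with earlier results of these data known. Other genes named are those of the lists, the 5 most like (1 of them is not reported here) and 5 most unlike the position, the gene most like each of the 10, and the next 2 in the ranking of each cluster. The split of the larger cluster by RGS13, NET1's and MX2's levels and the cells that moved between clusters were described after their values were seen. The calculations of folds and of the position were tested on simulated data with known folds. The simulation drew genes independently and used random groups of cells, so it does not check the clustering or the choice of the genes. Alternatives covered the cell filter, thinning of reads, the thresholds, the clustering and the scaling.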

Additional observations from a re-analysis of the deposited data

Results flagged for a closer look

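Outside the cells used, 24 cells had fewer than 8000 detected genes, with a median of 6893.5 genes and 1660767 reads. Of these, 4 had at least 3 genes of the first set at 10 CPM and 3 had at least 3 genes of the second set, while 0 had both and 17 had neither. They were noted because the genes were detected in cells outside those described in the report. PTN reached 10 CPM in 16 and EMP2 in 11 of the 24 cells. The cell with the most detected genes among them, 7984, had 30.2 CPM of CCR7 and no read of OLR1, and the cell with the fewest among those used, 8199, had 1173 CPM of OLR1 and no CCR7 read.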

How the results depend on the processing

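The shares of cells with sets on depended on the thresholds. With a gene on at 1 CPM, 41.4% of cells had both sets on and 9.01% only the second. At 50 CPM these were 2.70% with both and 16.2% with neither. With at least 2 genes of a set, 49.5% had both, 39.6% only the first and 10.8% only the second. With at least 4 genes, 2.70% had both, 34.2% only the second and 10.8% neither. An alternative added after seeing the data called a gene on above the middle of its own scaled range, which gave 9.01% with both, 30.6% with only the second and 4.50% with neither. An intermediate position from 1/4 to 3/4 held 41.4% of cells in place of 18.9%. Of 59 recomputed shares and correlations, the other 45 stayed within the interval of the reported share or within 0.1 of the reported rho, including those after thinning, with cells of at least 7000 or 9000 genes and without PTN. A further 12, with the 10 genes left out of the clustering or at resolution 0.5, used the same trophectoderm-like cells and could not move. The folds kept their direction in all 50 recomputations, and 15 moved by more than 1.5 times, 7 of them with the 10 genes left out, 5 with cells of at least 9000 genes and 3 without the cell with the most reads of the gene in each cluster, an alternative added after seeing the data. With the last, RGS13 was 19.1-fold, CAV1 154.3-fold and CLMP 975.8-fold. With cells of at least 9000 genes RGS13 was 36.5-fold, SEMA6D 21.4-fold, PTPRE 84.1-fold, CCR7 15.7-fold and CLMP 60.7-fold. With the 10 genes left out, 12 cells changed their state. No paired analysis was possible because all cells are 1 group without replicate numbers. Trophectoderm-like cells had 1778462 reads or more each. PTPRE, CCR7, CLMP and CAV1 had a rho from 0.302 to 0.385 with the number of detected genes, and the part of depth in the shares was not tested. The levels of genes with few reads, such as CLMP in the larger cluster, rest on few counts.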
